A study of Homo sapiens with 15 samples.

Results

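The mRNA levels of 10 genes around the transcription factor ATF4 and serine synthesis were followed through 3 oral cell lines and a YBX1 knockdown. The genes were picked by name (ATF4, DDIT3, TRIB3, CHAC1, SESN2, ASNS, PHGDH, PSAT1, PSPH and SHMT2), and all 10 were among the 12995 genes of the deposited tables. OKF6 is a normal oral epithelial line, labelled wild type and grown in keratinocyte serum-free medium (K-SFM). SCC25, an oral cancer line, was grown in K-SFM, and SCC15, also an oral cancer line, in DMEM with serum. The SCC15 and SCC25 cells were pools, sorted for GFP and mCherry after lentiviral transduction and expanded, to carry Cas9 and a guide RNA against YBX1 that doxycycline switches on. They were sequenced without doxycycline (+YBX1) or with doxycycline at 1 µg/ml (–YBX1), and a time of 3 days is given for every library. The sample titles read YBX1KO with and without doxycycline (DOXpos and DOXneg). The sample labels call the –YBX1 libraries YBX1 knockout and give the +YBX1 genotype as wild type. Each of the 5 groups had 3 libraries. No library of cells given doxycycline without a guide against YBX1 was analysed here, so knockdown and doxycycline cannot be told apart. OKF6 and SCC15 differed in medium as well as in line, as did SCC25 and SCC15, so line and medium cannot be told apart in those comparisons. No transduction or sorting is described for OKF6. Line and transduction therefore cannot be told apart when SCC15 or SCC25 is compared with OKF6.

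ATF4 is a bZIP transcription factor whose mRNA is translated preferentially when the kinases of the integrated stress response phosphorylate eIF2. It induces genes for amino acid supply and redox balance, and, with DDIT3 (CHOP), genes of the later stress response. PHGDH, PSAT1 and PSPH turn the glycolytic intermediate 3-phosphoglycerate into serine, and SHMT2 splits serine to glycine in mitochondria and hands the released carbon to folate. ATF4 controls these serine genes too, so the stress genes and the serine genes are often read together.

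ATF4 binds with C/EBP partners at a composite element, searched here as TGATGNAA on both strands, 250 bases before to 50 bases after each gene's start (RefSeq windows, GRCh38.p14). Of the 8 members with a window in the table, 2 held it, against 3.62% of all 35116 windows and 2.7% of 10053 genes of the expression tables with a window. PSPH and SHMT2 had no window. The 30 bases around the ASNS element are chr7:97872458-97872487 (gene on the minus strand, motif in the gene's direction), and those around the CHAC1 element are chr15:40953251-40953280 (gene on the plus strand, motif on the opposite strand). Both are shown 5′ to 3′ along the gene with the motif in capitals, and they are all the matches found among the members.
ASNS: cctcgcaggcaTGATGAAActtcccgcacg
CHAC1: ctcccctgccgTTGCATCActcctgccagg
A match is a description of the letters in this window alone. The motif begins 68 bases before the RefSeq start for ASNS and 209 for CHAC1. By the gene spans given below, which come from a different annotation, both elements lie inside the gene.

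The libraries were QuantSeq 3′ FWD, in which reads come from mRNA 3′ ends. Values are log2 CPM as deposited (counts scaled by library), with 0.5 added to each count. The scaling did not follow the counted reads alone. In SCC15 +YBX1 replicate 1 (4780340 reads) 1 read was worth 0.182 CPM, and in SCC25 +YBX1 replicate 1 (6090488 reads) 0.188 CPM. This scaling enters the comparisons of lines, and its factors are not given in the sources used here. Reads counted on genes lay between 4075290 and 6118501 per library, and 1 read was worth 0.138 to 0.226 CPM. Member counts ran from 10 reads (DDIT3 in OKF6 replicate 2) to 8969 reads (ATF4 in SCC15 –YBX1 replicate 1). The 6 epithelial markers, among them CDH1, EPCAM, KRT5, KRT14 and KRT6A, summed to 20390 to 27960 CPM in OKF6 and 7860 to 16190 CPM in SCC25 +YBX1, but to 3.37 to 26.3 CPM in SCC15 +YBX1, where CDH1 had at most 14 reads. SCC15 thus lacked most of the epithelial marker signal of the other lines. The mesenchymal markers VIM, CDH2, FN1 and ZEB1 were all in the table, as were 2 of 6 fibroblast, 0 of 3 endothelial and 1 of 3 immune markers. The mesenchymal markers summed to 658 to 1657 CPM in OKF6, 2406 to 3133 CPM in SCC25 +YBX1 and 384 to 416 CPM in SCC15 +YBX1. In SCC15 against SCC25, 2 of them were called higher (CDH2 and ZEB1) and 2 lower (VIM and FN1). The part of these marker differences in the comparisons of lines was not tested. OKF6 replicate 1 stood apart from the other OKF6 libraries. SCC15 –YBX1 replicate 1 and SCC25 –YBX1 replicate 2 stood above the other libraries of their groups for most members. Both also stood apart over all genes. The chi-square per degree of freedom, read counts set against counting noise, was 28.6 and 28.3 for SCC15 –YBX1 replicate 1 against its group. It was 3.99 between the other SCC15 –YBX1 libraries. For SCC25 –YBX1 replicate 2 it was 43.3 and 44.7, and 22.7 between the other SCC25 –YBX1 libraries. The leading results that rest on any of these libraries are also given without them. The labels do not say that replicates were separate cultures, and p-values measure the spread between these libraries alone.

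ATF4 (chr22:39519695-39522683, hg38, plus strand) was most abundant in SCC15. Its log2 CPM was 8.65, 7.50 and 8.40 in OKF6, 8.24, 8.45 and 8.47 in SCC25 +YBX1, and 9.59, 10.33 and 9.56 in SCC15 +YBX1. Every SCC15 library lay above every library of the other lines, whereas OKF6 and SCC25 overlapped. ATF4 was 2.71-fold higher in SCC15 than in SCC25 (log2 difference 1.44 ± 0.31, SE, adjusted p = 0.00335) and 3.12-fold higher than in OKF6 (1.64 ± 0.31, adjusted p = 0.00116). Between SCC25 and OKF6 the log2 difference was 0.20 ± 0.31 (95% interval -0.49 to 0.89). Of 86 pieces of 75 bases from the last 500 bases of the ATF4 transcript, 26 matched another place in hg38 as well as their own and 85 matched one at 70 or more bases, so reads of this gene could be lost or shared with copies.

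PHGDH and PSAT1 of the serine genes were also highest in SCC15, whereas PSPH and SHMT2 did not separate the cancer lines. PHGDH (chr1:119648411-119744218, plus strand), the first enzyme of the pathway, read 6.47, 4.49 and 4.60 in OKF6, 5.68, 5.58 and 5.62 in SCC25 +YBX1, and 8.42, 8.16 and 7.96 in SCC15 +YBX1. The SCC15 values did not overlap with those of either other line, and OKF6 replicate 1 lay above all SCC25 libraries. PHGDH was 5.86-fold higher in SCC15 than in SCC25 (log2 difference 2.55 ± 0.43, adjusted p = 0.000703) and 7.97-fold higher than in OKF6 (2.99 ± 0.43, adjusted p = 0.000175).

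PSAT1 (chr9:78297125-78330093, plus strand), the transaminase of the second step, read 7.04, 5.94 and 6.40 in OKF6, 6.89, 6.89 and 6.87 in SCC25 +YBX1, and 8.43, 8.10 and 7.88 in SCC15 +YBX1. It was 2.38-fold higher in SCC15 than in SCC25 (log2 difference 1.25 ± 0.26, adjusted p = 0.0029) and 3.20-fold higher than in OKF6 (1.68 ± 0.26, adjusted p = 0.000321), with no overlap in either. Of its 86 pieces, 2 matched another place as well as their own and 79 matched one at 70 or more of 75 bases.

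PSPH and SHMT2 were higher in SCC15 than in OKF6, but their SCC15 and SCC25 libraries overlapped. PSPH (chr7:56011051-56051604, minus strand), the phosphatase that releases serine, read 6.07, 4.59 and 3.87 in OKF6, 6.43, 6.33 and 6.63 in SCC25 +YBX1, and 6.55, 6.45 and 5.88 in SCC15 +YBX1. Both cancer lines exceeded OKF6 replicates 2 and 3, and OKF6 replicate 1 lay inside the SCC15 range. PSPH was higher than OKF6 in SCC25 (log2 difference 1.62 ± 0.45, adjusted p = 0.0204) and in SCC15 (1.46 ± 0.45, adjusted p = 0.0201), and SCC15 minus SCC25 was -0.17 ± 0.45 (95% interval -1.16 to 0.83). Of the 79 PSPH pieces that mapped to their own locus, 4 matched another place as well and 49 matched one at 70 or more of 75 bases.

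SHMT2 (chr12:57229573-57234935, plus strand) spanned 6.75 to 7.20 in OKF6, 7.16 to 7.65 in SCC25 +YBX1 and 7.43 to 7.84 in SCC15 +YBX1. It rose 1.58-fold in SCC15 over OKF6 (log2 difference 0.66 ± 0.20, adjusted p = 0.0182), and SCC15 minus SCC25 was 0.25 ± 0.20 (95% interval -0.19 to 0.69). NDUFA4L2 lies over the last bases of SHMT2 on the opposite strand, MARS1 does so for DDIT3, and a long noncoding RNA, ENSG00000284707, shares the strand and 3′ end of ASNS. The strand setting of the counting was not given in the sources used here.

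**Figure D1:**
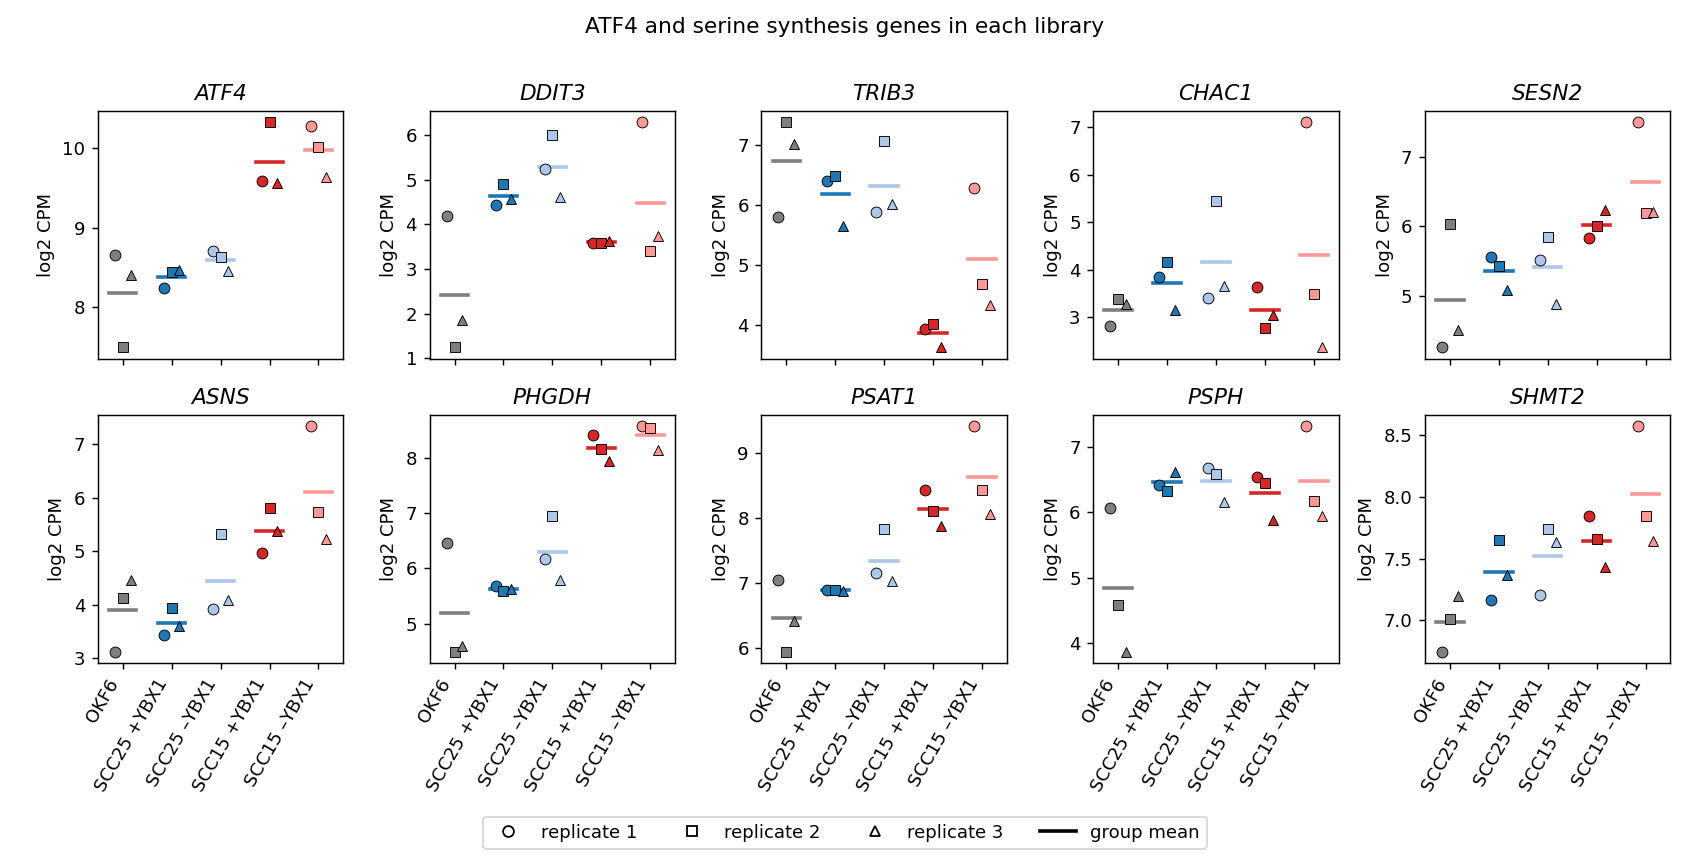
log2 CPM (vertical axes, a separate scale for each gene) of the 10 members in the 5 groups. Symbols are single libraries by replicate number and bars are group means. Every SCC15 library lay above all OKF6 and SCC25 libraries for ATF4 and PHGDH, the SCC15 +YBX1 libraries lay lowest for TRIB3, and SCC15 –YBX1 replicate 1 was the highest library of its group for all 10 genes.

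Of the stress genes downstream of ATF4, ASNS was highest in SCC15 like ATF4, whereas TRIB3 was lowest there. TRIB3 (chr20:362835-397559, plus strand), a pseudokinase that ATF4 and DDIT3 induce, read 5.79, 7.38 and 7.01 in OKF6, 6.39, 6.49 and 5.65 in SCC25 +YBX1, and 3.94, 4.02 and 3.63 in SCC15 +YBX1. All SCC15 +YBX1 libraries lay below all libraries of the other lines, the opposite of ATF4. The level in SCC15 was 4.96-fold below SCC25 (log2 difference -2.31 ± 0.38, adjusted p = 0.000613) and 7.27-fold below OKF6 (-2.86 ± 0.38, adjusted p = 0.000101).

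ASNS (chr7:97851677-97872542, minus strand), asparagine synthetase, read 3.12, 4.13 and 4.47 in OKF6, 3.43, 3.93 and 3.60 in SCC25 +YBX1, and 4.96, 5.80 and 5.38 in SCC15 +YBX1. It was 3.31-fold higher in SCC15 than in SCC25 (log2 difference 1.72 ± 0.37, adjusted p = 0.00354) and 2.78-fold higher than in OKF6 (1.47 ± 0.37, adjusted p = 0.00717), without overlap in either.

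DDIT3 (chr12:57516588-57521737, minus strand), the CHOP factor, had its most even values in SCC15. It read 4.18, 1.24 and 1.86 in OKF6, 4.44, 4.90 and 4.56 in SCC25 +YBX1, and 3.58, 3.59 and 3.63 in SCC15 +YBX1. OKF6 replicate 1 lay above all SCC15 libraries and the other OKF6 libraries far below. DDIT3 was 4.62-fold higher in SCC25 than in OKF6 (log2 difference 2.21 ± 0.62, adjusted p = 0.0212). SCC15 lay below SCC25 without overlap, but with the OKF6 spread in the fit the log2 difference of -1.03 ± 0.62 had an adjusted p of 0.203, and with only these 2 lines fitted it was 0.00212. The calls of DDIT3 and PSPH in SCC25 over OKF6 were lost with only those lines fitted (adjusted p = 0.0619 and 0.0515) and without OKF6 replicate 2 (0.0545 and 0.0547), and also without OKF6 replicate 3 or any 1 SCC25 +YBX1 library. Without OKF6 replicate 1, DDIT3 was called between SCC15 and OKF6 as well, at a log2 difference of 2.05.

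SESN2 (chr1:28259518-28282491, plus strand), the leucine sensor Sestrin2, read 4.25, 6.04 and 4.50 in OKF6, 5.55, 5.43 and 5.08 in SCC25 +YBX1, and 5.84, 6.00 and 6.23 in SCC15 +YBX1. The log2 difference of SCC15 from OKF6 was 1.09 ± 0.40 (adjusted p = 0.0416), although OKF6 replicate 2 lay within the SCC15 range, and without OKF6 replicate 1 the adjusted p was 0.11. CHAC1 (chr15:40952962-40956512, plus strand), which breaks down glutathione, had values from 2.77 to 4.16 over 9 libraries of OKF6 and the +YBX1 groups. Its groups overlapped in all 3 comparisons, with SCC15 minus OKF6 at -0.01 ± 0.39 (95% interval -0.87 to 0.86).

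Counted together, SCC15 exceeded SCC25 in 4 of the 10 members and lay below it in 1, beside 43.6% of all genes called (20% higher and 23.6% lower). The balance over all genes, 2602 higher and 3070 lower, turned to 3045 and 2685 with equal library medians and to 3430 and 2767 with quantile normalisation. Against OKF6, 7 were higher in SCC15 and 1 lower, beside 50.3% (26.9% higher and 23.4% lower). SCC25 exceeded OKF6 in 2 and fell below it in 0, beside 30.2% (18.9% higher and 11.3% lower, or 2006 higher against 1837 lower genes after quantile normalisation, in place of 2450 and 1473). For 7 members, 5 higher and 2 lower, no SCC15 library overlapped an SCC25 library, as for 66.6% of all genes (32.5% higher and 34.1% lower). Groups were apart for 6 members between SCC15 and OKF6 (54.4% of all genes) and for 2 between SCC25 and OKF6 (43.3%). These comparisons share libraries and are not independent of each other. The 4 calls for ATF4, ASNS, PHGDH and PSAT1 and the call for TRIB3 passed, in both SCC15 comparisons, under all alternatives and with any 1 library left out, whereas the counts for SCC25 against OKF6 ranged from 0 to 4 higher. The calls of SESN2, PSPH and SHMT2 in SCC15 over OKF6 were lost without SCC15 +YBX1 replicate 1 and without replicate 2, which left 4 higher. SESN2 was lost in 8 of 9 such fits (all but that without OKF6 replicate 2), and PSPH also without OKF6 replicate 2 (adjusted p = 0.0559) or 3 (0.0691). Without OKF6 replicate 1, PHGDH (log2 difference 1.09, adjusted p = 0.000861), PSAT1 (0.72, adjusted p = 0.0161) and TRIB3 (-1.02, adjusted p = 0.0129) also passed between SCC25 and OKF6.

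**Figure D2:**
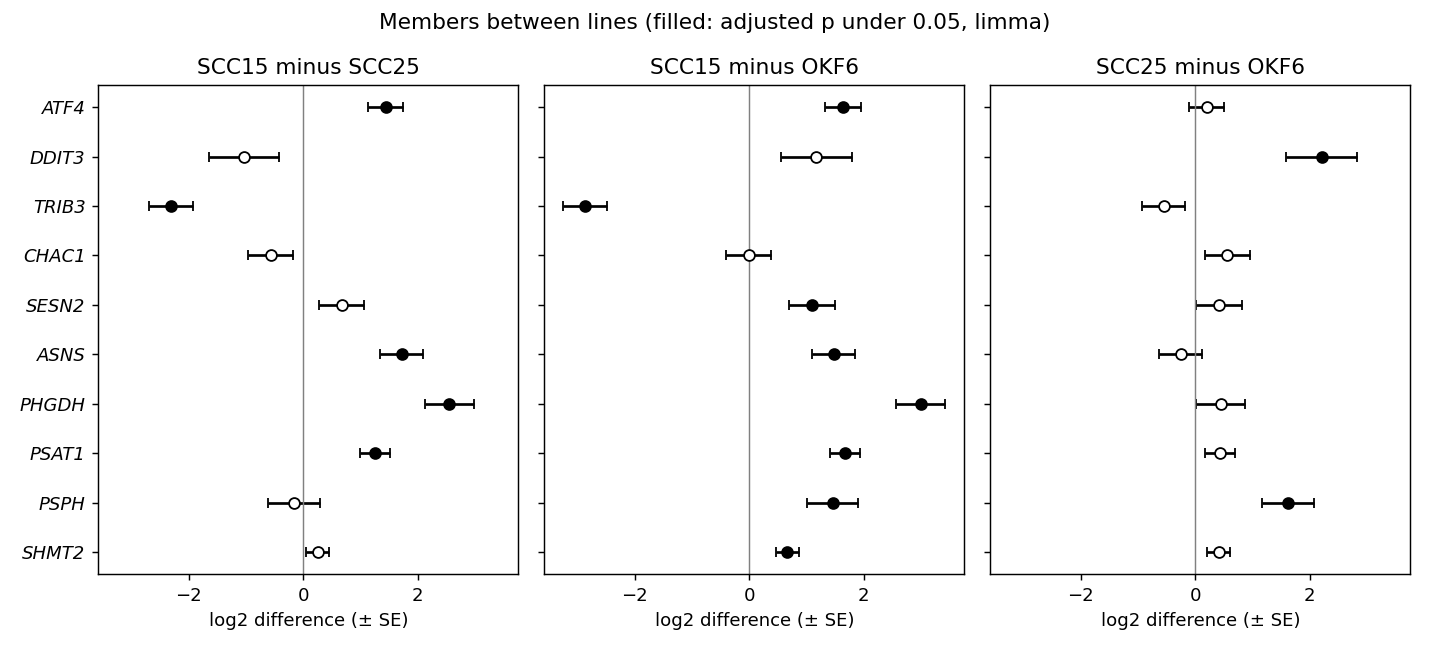
log2 difference (horizontal axis) of each member between the lines, with SE bars from limma over 3 libraries a group. Filled points had an adjusted p under 0.05. PHGDH had the greatest rise in SCC15 (2.55 and 2.99) and TRIB3 fell in both SCC15 comparisons, while SCC25 and OKF6 differed in DDIT3 and PSPH.

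The neighbouring pathways were described by their counts and medians, without a test of the list, and their counts stand beside the shares of all genes called: 20% higher and 23.6% lower in SCC15 against SCC25, and 26.9% and 23.4% against OKF6. The folate and glycine cleavage enzymes, which take up the carbon of serine, had 9 of 25 measured genes called up and 2 called down in SCC15 relative to SCC25 (median log2 difference 0.41, beside -0.01 over all genes). Against OKF6 10 of 25 were higher and 1 lower (median 0.70, beside 0.10). SLC19A1, the reduced folate carrier, was higher by a log2 difference of 1.87 ± 0.36 against SCC25 and 2.31 ± 0.36 against OKF6. TYMS, thymidylate synthase, was higher than in SCC25 by 1.34 ± 0.20, SFXN1, a mitochondrial serine transporter, was higher than in OKF6 by 1.48 ± 0.22, and MTRR fell by 1.39 (SE 0.24) against SCC25. For SCC25 against OKF6, 1 of 25 folate genes was higher and 1 lower, beside 18.9% and 11.3% of all genes.

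In a list of bZIP factors and related regulators, named the bZIP partners here, more were called lower than higher. CEBPZ and NUPR1 are in this list but are not bZIP proteins. In SCC15 against SCC25, 2 of 19 were higher and 10 lower (median log2 difference -1.67), and against OKF6 2 were higher and 11 lower (median -1.37). CEBPD, a C/EBP factor, fell by 5.63 (SE 0.46) on the log2 scale against SCC25, and FOSL1, a FOS relative, had a mean log2 CPM of -0.22 in SCC15 and 6.93 in SCC25. CEBPA was higher by 1.64 ± 0.39. The epithelial markers were lower in the same comparison (6 of 6), and their part in the bZIP values was not tested.

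Other ATF4 stress targets were called in both directions, in shares near those of all genes against SCC25, with 5 of 26 higher and 8 lower against SCC25, and 3 higher and 11 lower against OKF6. BBC3, a pro-apoptotic BH3 gene, was higher in SCC15 by 1.54 ± 0.50 against SCC25 and VEGFA fell by 2.00 (SE 0.23). Against OKF6, STC2 was higher by 1.66 ± 0.33, and GADD45A (-3.31 ± 0.23) and DDIT4 (-3.24 ± 0.58) were lower.

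Amino acid transporters had 2 of 21 higher and 7 lower against SCC25, although their median log2 difference was 0.10, and 4 higher and 7 lower against OKF6 (median -0.60). SLC7A5, the large neutral amino acid carrier, was lower against OKF6 (-3.68 ± 0.31), as was its partner SLC3A2 (-2.60 ± 0.23). SLC1A4, which carries alanine and serine, fell by 2.09 (SE 0.30) against SCC25. Among cytosolic aminoacyl-tRNA synthetases, 3 of 19 were higher and 2 lower against SCC25, and YARS1 was higher by 0.76 ± 0.22.

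Enzymes of other amino acids had 5 of 21 called up and 1 called down in SCC15 relative to SCC25, with ALDH18A1, of proline synthesis, higher by 1.52 ± 0.29 and PCK2 lower (log2 difference -1.23 ± 0.28). Against OKF6 PYCR1, also of proline synthesis, was higher in SCC15 by 1.83 ± 0.21 and in SCC25 by 1.86 ± 0.21. In glutathione metabolism, GCLM was lower in SCC15 than in SCC25 (-2.47 ± 0.36) and higher in SCC25 than in OKF6 (2.52 ± 0.36). Upper glycolysis, which supplies 3-phosphoglycerate, had 1 of 11 higher and 3 lower in SCC15 than in SCC25, a share of lower genes near that of all genes, among them GAPDH (-1.12 ± 0.34). The eIF2 kinases and regulators had 2 of 23 higher and 6 lower, also near the share of all genes that were lower, with EIF2AK1 higher by 0.53 ± 0.16 and EIF2B5 lower (-1.59 ± 0.19).

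YBX1, a cold shock domain RNA-binding protein and the targeted gene, served to check the knockdown labels. In SCC25 it read 6.74, 6.31 and 6.62 log2 CPM as +YBX1 and 5.26, 4.70 and 3.65 as –YBX1. It read 5.11, 5.56 and 6.00 in SCC15 +YBX1 and 3.36, 3.71 and 3.13 in SCC15 –YBX1. The groups did not overlap in either line. The log2 difference was -2.01 ± 0.35 in SCC25 (adjusted p = 0.29) and -2.15 ± 0.35 in SCC15 (adjusted p = 0.326). As the mean of both lines it was -2.08 ± 0.24 (adjusted p = 0.0103), the single call among 12995 genes (0.0077%), and without SCC15 –YBX1 replicate 1 and SCC25 –YBX1 replicate 2 it was -2.11 (adjusted p = 0.0599). The call was also lost without a variance trend (adjusted p = 0.14) and in 6 of 12 fits that left out 1 library (highest adjusted p = 0.0711), where the difference lay between -2.26 and -1.86. A 3′ read does not show the cut itself.

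With knockdown, 0 members passed the threshold in either line (limma), as did 0 of all 12995 genes (0%), where 401 genes had an unadjusted p under 0.05 in SCC25 and 302 in SCC15. The log2 difference, –YBX1 minus +YBX1, was above 0 for all 10 members in both lines, where 46.6% of all genes lay above 0 in SCC25 and 48.7% in SCC15. The members' deviations move together, so these are not 10 separate observations. At an unadjusted p under 0.05, 1 member was higher in SCC25, PHGDH, beside 3.09% of all genes in either direction (1.36% higher). In SCC15 it was TRIB3, beside 2.32% (1.11% higher). As the mean of both lines TRIB3, ASNS, PHGDH and PSAT1 had an unadjusted p under 0.05, beside 2.15% of all genes. Without SCC15 –YBX1 replicate 1 and SCC25 –YBX1 replicate 2 this count was 0, and the log2 differences went from 0.69 to 0.21 for TRIB3, 0.75 to 0.22 for ASNS, 0.46 to 0.26 for PHGDH and 0.47 to 0.15 for PSAT1. That pair was left out because most members were high in it, which by itself lowers these differences and this count. No conclusion is therefore drawn from the lower values, here or below. The count was 1 without a variance trend, 2 with quantile normalisation and 1 to 6 with 1 library left out. In SCC25 alone it was 0 without –YBX1 replicate 2, and in SCC15 alone 0 without –YBX1 replicate 1 (1, TRIB3, without both of these libraries). At the adjusted threshold voom on the recovered reads, like all other alternatives, left 0 members called. The count at an unadjusted p under 0.05 became 2 in SCC25 and 3 in SCC15 when the replicate number was a block within each line.

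PHGDH read 5.68, 5.58 and 5.62 in SCC25 +YBX1 and 6.17, 6.96 and 5.78 in SCC25 –YBX1. Every –YBX1 library lay above every +YBX1 library, with replicate 2 farthest above. The log2 difference was 0.68 ± 0.24 (95% interval 0.15 to 1.2, adjusted p = 0.9998), and 0.35 without SCC25 –YBX1 replicate 2 and SCC15 –YBX1 replicate 1. In SCC15 the PHGDH groups overlapped, at 0.25 ± 0.24.

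TRIB3 read 3.94, 4.02 and 3.63 in SCC15 +YBX1 and 6.29, 4.68 and 4.33 in SCC15 –YBX1. The groups did not overlap, and replicate 1 lay far above the other –YBX1 libraries. The log2 difference was 1.23 ± 0.44 (95% interval 0.29 to 2.17, adjusted p = 0.9999), and 0.64 without the same pair of –YBX1 libraries. In SCC25 it was 0.15 ± 0.44, and the difference between the lines, SCC25 minus SCC15, was -1.09 ± 0.62 (unadjusted p = 0.101 by limma). For that difference between lines 0 genes were called (0%), with 294 (2.26%) at an unadjusted p under 0.05.

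PSAT1 read 6.89, 6.89 and 6.87 in SCC25 +YBX1 and 7.15, 7.83 and 7.03 in SCC25 –YBX1. These groups did not overlap either, and the log2 difference was 0.45 ± 0.30 (95% interval -0.18 to 1.09), and 0.20 without the same pair of –YBX1 libraries, replicate 2 being the highest. Groups that did not overlap were thus found for 2 members in SCC25 and 1 in SCC15, all higher, beside 7.31% (3.56% higher) and 7.04% (3.26% higher) of all genes. ATF4 itself differed by 0.21 ± 0.22 in SCC25 (95% interval -0.25 to 0.68) and by 0.15 ± 0.22 in SCC15 (95% interval -0.32 to 0.62).

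In some members a single –YBX1 library lay far above the others of its group. CHAC1 read 7.11, 3.48 and 2.37 in SCC15 –YBX1 and 3.64, 2.77 and 3.04 in SCC15 +YBX1. DDIT3 read 6.3, 3.40 and 3.74 with knockdown and 3.58, 3.59 and 3.63 without. In both genes replicate 1 alone was high, and the other –YBX1 libraries lay within or close to the +YBX1 range.

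SCC15 –YBX1 replicate 1 was the highest library of its group for 10 of 10 members, where 41.4% of all genes were highest in it. This library also stood apart from its group over all genes, as did SCC25 –YBX1 replicate 2. Ranked by the excess over the mean of the other libraries of the group, CHAC1 stood at place 7 of 12995 genes (log2 excess 4.19) and DDIT3 at place 72 (2.72). ASNS stood at place 289 (1.85) and TRIB3 at place 330 (1.78), whereas ATF4 (0.45) and PHGDH (0.23) had the smallest excess among the members.

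In SCC25 it was –YBX1 replicate 2 that was the highest of its group, for 8 of 10 members, where 36.5% of all genes were highest in it. CHAC1 led again (log2 excess 1.92, place 430), followed by ASNS (1.31, place 996). YBX1 lay between the other libraries of its group in both, with a log2 excess over their mean of -0.06 in SCC15 –YBX1 replicate 1 and 0.24 in SCC25 –YBX1 replicate 2. The YBX1 values themselves spread from 3.13 to 3.71 log2 CPM in SCC15 –YBX1 and from 3.65 to 5.26 in SCC25 –YBX1. Among the libraries without doxycycline, SCC25 +YBX1 replicate 2 was the highest of its group for 6 members (32.6% of all genes). SCC15 +YBX1 replicate 1 was the highest of its group for 5 (40.6% of all genes). Without both of these –YBX1 libraries the log2 difference lay above 0 for 7 members in SCC15 and 6 in SCC25, and for ASNS it was 0.10 and 0.35. Leaving out libraries in which most members were high lowers such values by itself.

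**Figure D3:**
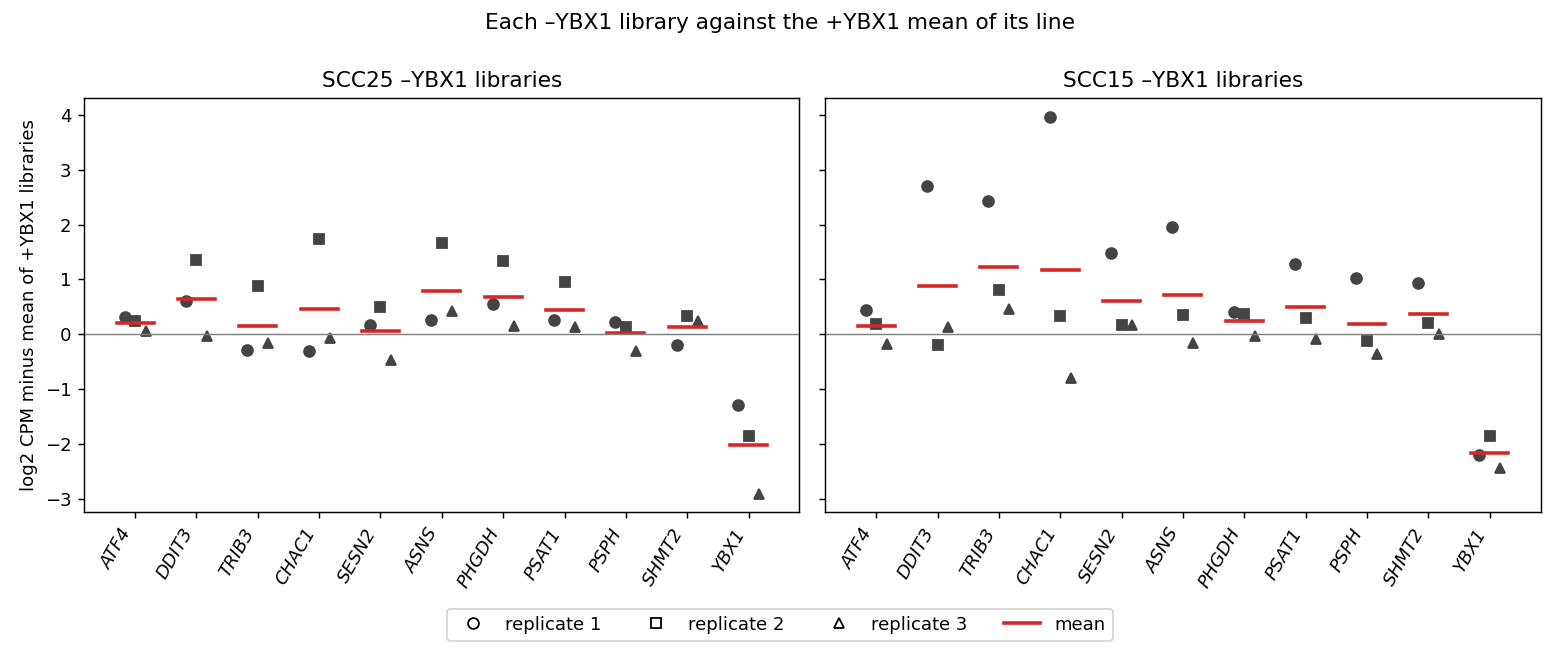
log2 CPM of each –YBX1 library minus the mean of the 3 +YBX1 libraries of its line (log2 axis), for the members and YBX1. SCC15 –YBX1 replicate 1 and SCC25 –YBX1 replicate 2 lie above the other libraries for most members, while YBX1 lies below 0 in all 6 libraries.

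Medians of several other lists around ATF4 were also above 0 in these libraries, while others were below 0, and many lists had genes on both sides. In SCC15 –YBX1 replicate 1 the median log2 excess over the +YBX1 mean was 2.19 for the 6 stress members and 0.98 for the 4 serine members, beside 0.01 for all genes. It was 0.66 for the bZIP partners, 0.64 for other ATF4 stress targets, 0.61 for amino acid transporters and 0.32 for cytosolic aminoacyl-tRNA synthetases. Above all 3 +YBX1 libraries were 15 of 26 of those targets (5 below all 3), 12 of 21 transporters (9 below) and 12 of 19 synthetases (2 below), beside 29% of all genes. Of the 19 bZIP partners 11 were above all 3 and 0 below. Below all 3 were 4015 of all 12995 genes. For the synthetases replicate 2 had the same count above, 12 of 19, with 0 below, at a median of 0.18. There 18.9% of all genes were above all 3 and 2620 of 12995 below. The folate list, by contrast, had a median of -0.16. In replicates 2 and 3 the stress members had medians of 0.26 and -0.003.

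In SCC25 –YBX1 replicate 2 the median was 1.13 for the stress members and 0.64 for the serine members, 0.73 for other ATF4 targets (20 of 26 above all 3 +YBX1 libraries and 5 below, beside 32.7% of all genes above and 4228 of 12995 below) and 0.54 for the bZIP partners. Medians there were -0.07 for the tRNA synthetases, -0.22 for the folate list and -0.10 for the eIF2 kinases and regulators. Interferon-stimulated genes stood highest of the lists in this library, with a median of 2.25 and 15 of 15 above all 3 +YBX1 libraries, and at 0.14 in SCC15 –YBX1 replicate 1. ER chaperones had medians of 0.12 and -0.003 in these libraries, and mitochondrial chaperones and proteases of -0.26 and 0.07. The part of the interferon genes in the member values was not tested.

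**Figure D4:**
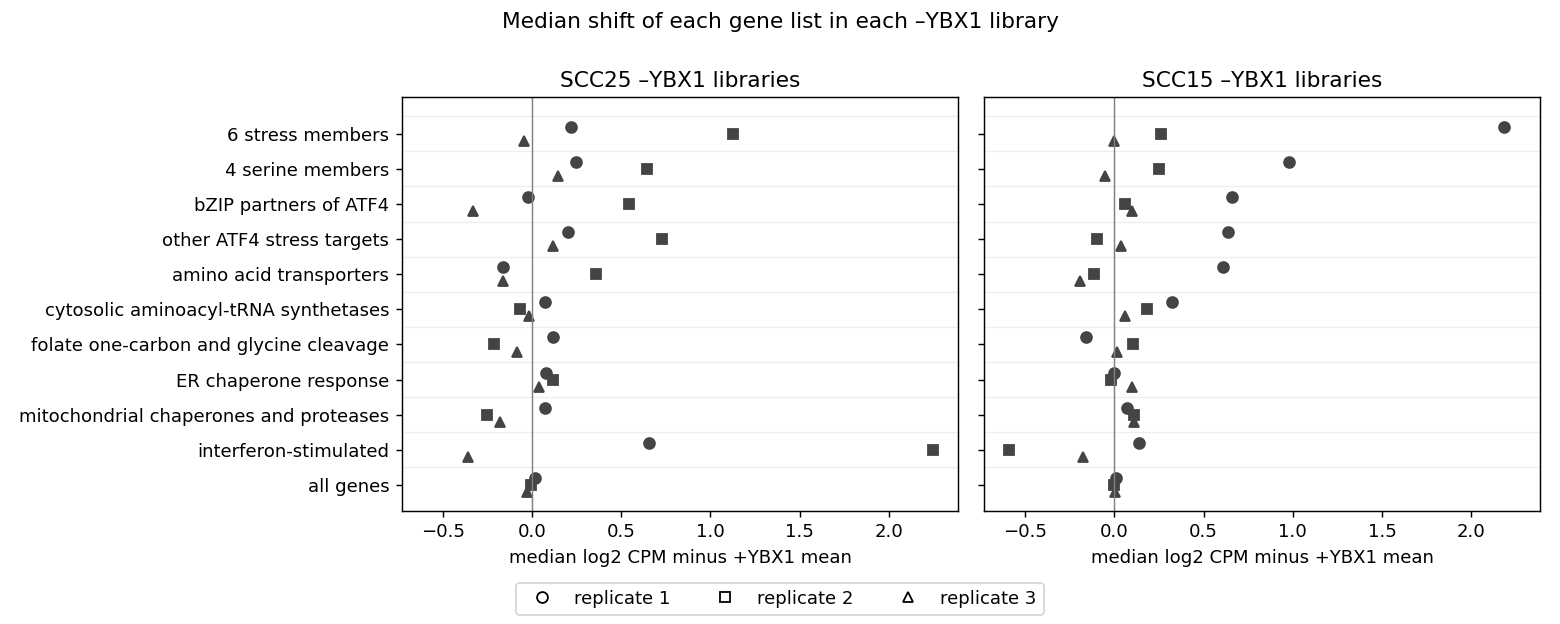
Median log2 excess of each gene list over the +YBX1 mean of its line, for each –YBX1 library. The stress members reach 2.19 in SCC15 replicate 1 and 1.13 in SCC25 replicate 2, where the interferon-stimulated list reaches 2.25, and the median of all genes stays near 0.

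Across the fitted lists, 0 genes were called with knockdown in either line. The median log2 difference of the cytosolic aminoacyl-tRNA synthetases was 0.29 in SCC15 (17 of 19 above 0) and -0.02 in SCC25. That of other ATF4 targets was 0.15 in SCC15 and 0.21 in SCC25, with 18 of 26 above 0 in each.

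Expressed as deviations from the group means over 15 libraries, the 45 pairs of members had a median Pearson r of 0.44, from -0.33 (ATF4 with SESN2) to 0.89 (DDIT3 with PSAT1). Over the 13 libraries without the pair of high –YBX1 libraries the median was -0.06. That pair was left out because most members were high in it, which by itself lowers such correlations. No conclusion is therefore drawn from the lower median. These correlations are descriptions, since libraries share a line and a treatment. Over all 15 libraries, and 6456 genes compared, genes among those most like the mean of the stress members were CARS1 (Pearson r 0.88), STC2 (0.86), AARS1 (0.83) and TSC22D3 (0.83). CARS1 and AARS1 charge tRNAs with cysteine and alanine, and STC2 is a secreted glycoprotein. Those most like the mean of the serine members were CDC25C (0.95), E2F2 (0.94), PLEKHG4 (0.93), LETMD1 (0.93) and S100PBP (0.93), values in which the difference between lines takes part.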

How the data were processed

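QuantSeq 3′ FWD libraries (75-base single-end reads) of 15 samples were analysed. Per the study's methods and the submitters' processing notes, the authors used Cutadapt for trimming, HISAT2 for alignment (hg38), featureCounts for gene counts and limma for filtering and normalisation. The strand setting is not given in the sources used here. The deposited values are log2 CPM with 0.5 added to each count, in a scaling that did not follow the counted reads alone. Whole reads were recovered for 100% of values (tolerance 0.05 reads), giving 4075290 to 6118501 reads per library, and used only in the voom alternative.

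Differences were tested on the deposited log2 values with limma 3.58.1 in R 4.3.3 (two-sided; lmFit, then eBayes using a variance trend). The p-values of all 12995 genes were adjusted together by Benjamini-Hochberg, and 0.05 was the threshold. The lines were fitted on the table of OKF6, SCC15 +YBX1 and SCC25 +YBX1, and knockdown on the table of the 4 SCC15 and SCC25 groups; the 6 +YBX1 libraries are in both. The procedure was tested on simulated reads from independent libraries with the same added spread for every gene. The libraries here did not share these traits, so that test does not measure error rates in these data. Other genes were named from gene lists, at most 2 with the largest rise and 2 with the largest fall per list and comparison, among called genes whose groups did not overlap and whose mean was above the median gene. The genes most like the members were the 5 with the highest Pearson r, of which 1 is not reported here. The members and the lists were chosen with earlier results of these data known.

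Pieces of 75 bases from the transcript ends were mapped to hg38 with minimap2 2.31-r1302. Alternatives were quantile normalisation, equal medians of the libraries, a fit of only the compared groups, a replicate block, no variance trend, a filter on low values, log2 of CPM plus 1, voom, and leaving out each library. Libraries with the same replicate number deviated together within a line (correlations 0.143, 0.462 and 0.402 in SCC25, 0.514, 0.354 and 0.221 in SCC15, over 6497 genes) but not between lines, although some libraries with different numbers did too (up to 0.237 in SCC25 and 0.316 in SCC15), so a block within each line was added after the data were seen, as was leaving out SCC15 –YBX1 replicate 1 with SCC25 –YBX1 replicate 2.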

Additional observations from a re-analysis of the deposited data

How the results depend on the processing

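In SCC15 against both other lines, ATF4, ASNS, PHGDH, PSAT1 and TRIB3 kept their direction and call under every alternative and with any 1 library left out. With only the groups compared, 2 members were called lower in SCC15 than in SCC25 (DDIT3 added), and 0 members passed as higher in SCC25 over OKF6 (DDIT3 adjusted p = 0.0619, PSPH 0.0515). Against OKF6 in SCC15, SESN2 lost its call with only the groups compared (adjusted p = 0.0839) and without a variance trend (0.0723), PSPH with only the groups compared (0.0519) and SHMT2 without a trend (0.0508). Leaving out 1 library gave 4 to 7 members higher in SCC15 than in OKF6, 1 to 2 lower in SCC15 than in SCC25, and 0 to 4 higher and 0 to 1 lower in SCC25 than in OKF6. In SCC25 against OKF6, DDIT3 and PSPH lost their calls without OKF6 replicate 2 (adjusted p = 0.0545 and 0.0547), without OKF6 replicate 3 and without any SCC25 +YBX1 library. The cause of these changes was not tested.

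Small differences changed sign. With equal library medians CHAC1 between SCC15 and OKF6 was 0.16. With quantile normalisation it was 0.083, PSPH between SCC15 and SCC25 was 0.075, and ATF4 between SCC25 and OKF6 was -0.020. The median of all genes between SCC15 and SCC25 moved from -0.01 to 0.14 with equal medians and 0.17 with quantile normalisation. Without the pair of high –YBX1 libraries the knockdown differences in SCC25 were -0.22 for TRIB3, -0.18 for CHAC1, -0.15 for SESN2 and -0.040 for PSPH, and in SCC15 -0.029 for DDIT3, -0.23 for CHAC1 and -0.23 for PSPH. Leaving out that pair lowers such differences by itself. With 1 library left out, CHAC1 between SCC15 and OKF6 ranged from -0.25 to 0.18, ATF4 between SCC25 and OKF6 from -0.14 to 0.43, ASNS there from -0.64 to 0.031, and PSPH between SCC15 and SCC25 from -0.29 to 0.040. The knockdown ranges in SCC15 were -0.23 to 0.45 for PSPH, -0.029 to 1.42 for DDIT3 and -0.23 to 2.15 for CHAC1. In SCC25 they were -0.084 to 0.18 for PSPH, -0.22 to 0.36 for TRIB3, -0.15 to 0.33 for SESN2 and -0.18 to 0.84 for CHAC1. The difference between lines in YBX1 ranged from -0.22 to 0.58.

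The replicate block over all libraries left the count of members called the same in every comparison (0 with knockdown). With the block within each line it was 0 with knockdown as well, and YBX1 as the mean of both lines had an adjusted p of 0.0206. At an unadjusted p under 0.05 this pairing gave 3 members in SCC15 (TRIB3, PSAT1 and SHMT2), 2 in SCC25 (PHGDH and PSAT1) and 6 as the mean of both lines. Counting error is greatest for DDIT3, which had 10 reads in OKF6 replicate 2.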
